A study of Arabidopsis thaliana with 35 samples.

Results

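The light-harvesting antenna and the nuclear-encoded subunits of photosystem I (PSI) and photosystem II (PSII) were followed at the transcript level in Arabidopsis thaliana (Col-0) shoots. The 40 genes were taken from a fixed list of locus identifiers, drawn up by gene function with earlier results of these data known: 18 encode antenna proteins (LHCA1 to LHCA4 of PSI and the LHCB1 to LHCB6 families of PSII), 12 encode PSI subunits and 10 encode PSII subunits. All 40 were found among the 27417 genes of the count table, and all 40 passed the filter on low counts in every comparison. Plants were raised on MS medium and then in ceramic granular soil, and 35 RNA-seq libraries were made from their shoots. The ethanol-treated plants received 10 mM ethanol for 3 days and were sampled after 0, 10 and 13 days of drought (days after drought, DAD). The water-treated plants received water for the same 3 days and were sampled at the same 3 times. A seventh group was sampled before either pretreatment. Each of the 7 groups had 5 libraries, with totals of 3589540 to 13440389 counts. All plants were of the same genotype, and every comparison after 0 DAD lies within drought, with no watered plants of the same age beside it.

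As background, chlorophyll-binding LHCA and LHCB proteins collect light and pass excitation to the reaction centres. PSII oxidises water, and PSI reduces ferredoxin, with electrons passed between them through the cytochrome b6f complex and plastocyanin. The antenna and many peripheral subunits are encoded in the nucleus and imported, whereas the core reaction-centre proteins are encoded in the plastid. Nuclear photosynthesis genes are known for high transcript levels in green shoots, for control by light, the circadian clock and the GLK transcription factors, and for repression in stressed leaves.

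The families hold close relatives, which matters for how reads are shared between genes. The 5 LHCB1 genes lie in 2 clusters: LHCB1.1 (AT1G29920), LHCB1.2 (AT1G29910) and LHCB1.3 (AT1G29930) on chromosome 1, and LHCB1.4 (AT2G34430) and LHCB1.5 (AT2G34420) on chromosome 2, which point away from each other with 1039 bases between their annotated starts. Spliced transcripts of LHCB1.4 and LHCB1.5 were 91.4% identical over 806 aligned bases, and those of PSAH-1 (AT3G16140) and PSAH-2 (AT1G52230) were 87.4% identical over 435 bases. No window of the sequencing read length was found unchanged in a second gene for 38 of the 40 members. The exceptions were LHCB2.1 (AT2G05100) and LHCB2.2 (AT2G05070), which shared 2 such windows each. Reads shortened by trimming could still align to a relative, so differences between close relatives may be understated.

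The regions upstream of LHCB1.4, LHCB1.5, PSAH-1 and PSAH-2 are shown because the ratios within these pairs of relatives differed most between treatments at 13 DAD. Each run is the 250 bases before the annotated gene start, read 5′ to 3′ on the gene's strand in the TAIR10.1 genome with RefSeq annotation. Capitals mark matches, on either strand, to the G-box (CACGTG), the ABRE core (ACGTG), the I-box core (GATAAG), a motif associated with GLK factors (CCAATC) or the CCA1 binding site (AAAAATCT). A G-box always holds the ABRE core on both strands.
LHCB1.4 (chr2:14524357-14524606, plus strand): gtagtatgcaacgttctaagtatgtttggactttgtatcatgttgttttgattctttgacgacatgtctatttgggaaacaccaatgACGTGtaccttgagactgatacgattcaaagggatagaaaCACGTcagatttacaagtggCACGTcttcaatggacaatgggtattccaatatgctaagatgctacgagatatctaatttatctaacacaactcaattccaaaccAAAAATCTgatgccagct
LHCB1.5 (chr2:14523569-14523818, minus strand): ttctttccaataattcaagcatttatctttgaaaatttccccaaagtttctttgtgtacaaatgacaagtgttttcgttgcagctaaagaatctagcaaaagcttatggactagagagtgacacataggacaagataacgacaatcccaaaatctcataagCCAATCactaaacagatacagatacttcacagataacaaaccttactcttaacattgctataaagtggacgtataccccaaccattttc
PSAH-1 (chr3:5469595-5469844, minus strand): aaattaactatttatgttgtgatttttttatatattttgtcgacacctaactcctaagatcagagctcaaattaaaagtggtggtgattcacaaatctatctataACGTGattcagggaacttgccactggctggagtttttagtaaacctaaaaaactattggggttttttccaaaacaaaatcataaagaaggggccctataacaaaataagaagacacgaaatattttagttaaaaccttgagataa
PSAH-2 (chr1:19454548-19454797, plus strand): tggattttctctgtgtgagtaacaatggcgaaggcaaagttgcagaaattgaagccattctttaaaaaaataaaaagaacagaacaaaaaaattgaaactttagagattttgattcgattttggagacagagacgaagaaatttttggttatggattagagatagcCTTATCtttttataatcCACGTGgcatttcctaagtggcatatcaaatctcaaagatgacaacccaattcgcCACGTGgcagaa
The LHCB1.4 run held 3 ABRE cores and 1 CCA1 binding site, and the LHCB1.5 run held 1 GLK-associated motif and neither of the others. The PSAH-2 run held 2 G-boxes and 1 I-box core, whereas the PSAH-1 run held 1 ABRE core outside any G-box.

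Over the upstream windows of the same length, the GLK-associated motif was found in 10 of 18 antenna genes (55.6%), in 0 of 12 PSI genes and in 1 of 10 PSII genes, beside 10.2% of 27443 protein-coding genes. G-boxes were found in 8 of 40 members (20%) beside 6.49% of all genes, ABRE cores in 16 of 40 (40%) beside 22.9%, and I-box cores in 9 of 40 (22.5%) beside 12.3%. The CCA1 binding site was found in 5 members (12.5%) beside 6.69% of all genes, and the DRE core (CCGAC) in 2 members (5%) beside 12%. The evening element (AAATATCT) was in 0 of the 40 windows and in 4.79% of all. These matches describe letters in a window and not binding.

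The 40 genes took up a large part of the shoot transcriptome until 10 DAD and a small part at 13 DAD. Before drought they held 21.7% to 24.2% of all counts in the ethanol-treated libraries and 20.5% to 24.0% in the water-treated libraries. At 10 DAD the ranges were 13.3% to 20.1% in ethanol-treated and 15.9% to 22.4% in water-treated plants. At 13 DAD the members held 4.03%, 3.11%, 6.03%, 2.11% and 2.09% of counts in the 5 ethanol-treated libraries, against 1.44%, 1.25%, 1.12%, 1.60% and 1.34% in the 5 water-treated libraries. Every ethanol-treated library lay above every water-treated library, but replicates 4 and 5 of the ethanol-treated plants lay close to the water-treated ones. In bulk shoots, fewer mesophyll cells and less of these transcripts per cell cannot be told apart.

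**Figure D1:**
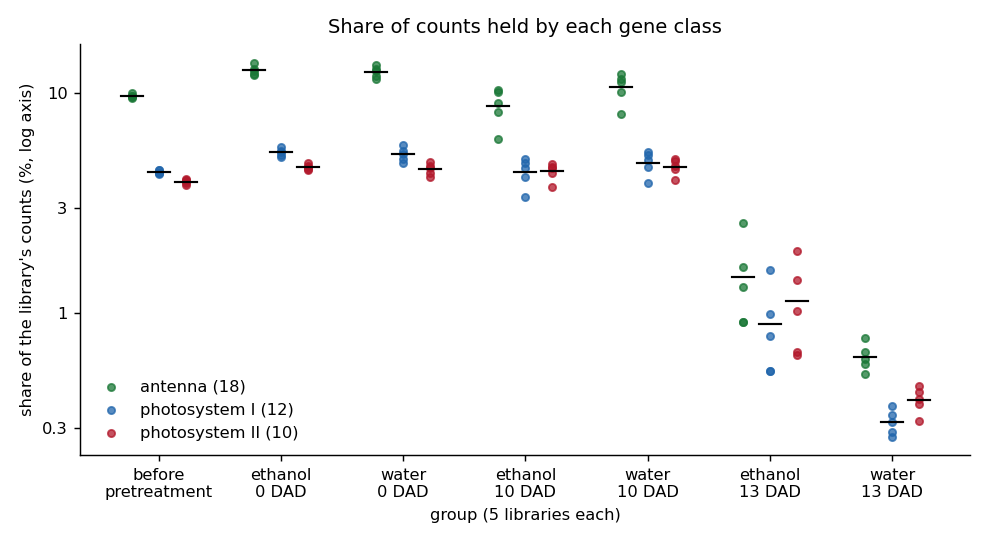
Share of each library's raw counts (%, log axis) held by the 18 antenna genes, 12 PSI genes and 10 PSII genes in the 7 groups, with 1 point per library and a bar at the mean of 5 libraries. At 13 DAD the antenna share was 0.903% to 2.56% in ethanol-treated and 0.524% to 0.765% in water-treated plants, far below the 12.02% to 13.72% and 11.52% to 13.39% at 0 DAD.

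Several other measures moved with these shares at 13 DAD, and their part in the results was not tested. The top 10 genes of each library summed to 7.08% to 8.87% of counts with ethanol and 12.4% to 15.2% with water. Transcripts of plastid genes took 0.923% to 1.51% and 0.631% to 0.933%. The label of shoot tissue was checked with 11 root markers, of which 8 stayed at 3 counts or fewer per library within either treatment, with summed normalized counts of 17.3 to 172 in ethanol-treated and 11.3 to 21.7 in water-treated plants. The summed levels of 5 guard-cell markers (712 to 1582 against 667 to 2679) and of 6 flower markers (46.5 to 181 against 36.6 to 98.6) overlapped. Those of 3 epidermal markers (972 to 1333 against 1286 to 1777) and 3 vascular markers (2046 to 2839 against 2711 to 3462) were mostly lower with ethanol, and their ranges also overlapped. Of these markers, 1 of 3 epidermal genes was called lower with ethanol, beside 4.78% of all genes. Of the flower genes, 1 of 2 tested was called higher, beside 8.79% of all genes.

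The first question was how the pretreatment changed the members late in drought. At 13 DAD, 24 of the 40 genes were called higher in ethanol-treated than in water-treated plants and 0 were called lower, where a call needs a false discovery rate (FDR) under 0.1 over all genes tested and at least a 2-fold change (edgeR quasi-likelihood test). Of all 15394 genes tested, 8.79% were called higher. All 40 fold changes were positive, with a median log2 value of 1.11 for the members and 0.04 for all genes. With no fold threshold, 35 of 40 passed, beside 21.3% of all genes in that direction. In 19 of the 40 genes every ethanol-treated library lay above every water-treated library, beside 9.51% of all genes. The calls were spread unevenly, with 11 of 12 PSI genes, 7 of 10 PSII genes and 6 of 18 antenna genes, and median log2 fold changes of 1.16, 1.24 and 0.79.

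The size of this difference rested in part on 1 library. Replicate 3 of the ethanol-treated plants was the highest of its 5 libraries in 39 of 40 members, and replicate 5 or 4 was the lowest in 27 and 12. Relative to the mean of the water-treated plants, the median member stood at 2.18, 1.77, 3.76, 1.26 and 1.2 times in ethanol-treated replicates 1 to 5. Without replicate 3, 7 genes were called higher (3 antenna, 3 PSI, 1 PSII) beside 7.56% of all genes, 33 passed the FDR alone, 39 of 40 fold changes stayed positive and the median log2 value was 0.76. The 7 genes were LHCA3 (AT1G61520), LHCB1.5, LHCB4.3 (AT2G40100), PSAD-1 (AT4G02770), PSAD-2 (AT1G03130), PSAH-1 and PSBR (AT1G79040). Leaving out any other single library gave 22 to 29 calls.

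**Figure D2:**
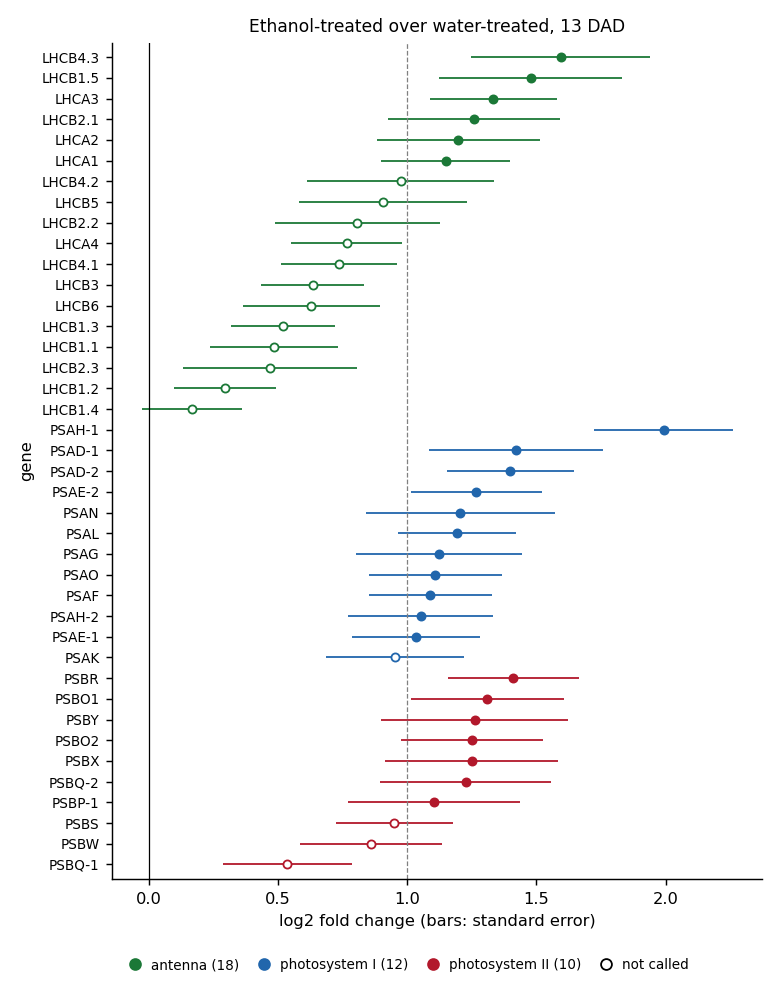
Log2 fold change of each of the 40 genes in ethanol-treated over water-treated plants at 13 DAD, with its standard error (5 libraries per group), grouped by class. Filled points were called higher and open points were not called; the dashed line marks a 2-fold change. The values run between 0.17 for LHCB1.4 and 1.99 for PSAH-1.

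Among PSI subunits, PSAH-1 differed most. PSAH is the subunit at which light-harvesting complex II docks on PSI during state transitions. PSAH-1 had 5123, 4183, 7999, 2841 and 2862 normalized counts in the ethanol-treated libraries at 13 DAD, against 1222, 1079, 1028, 1480 and 1191 in the water-treated libraries. The groups did not overlap, and the log2 fold change was 1.99 ± 0.27 (SE, adjusted p = 0.000223). The second gene for this subunit, PSAH-2, had 2031, 1789, 3314, 1200 and 1028 against 942.5, 875.7, 754, 1115 and 995.5. It was also called higher, by a log2 value of 1.05 ± 0.28, with replicate 5 of the ethanol-treated plants inside the range of the water-treated ones.

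PSAD and PSAE, stromal PSI subunits at the ferredoxin docking site, are each encoded by a pair of nuclear genes. PSAD-1 had 5939, 4785, 10600, 2934 and 3158 normalized counts in ethanol-treated plants, against 2070, 1898, 1725, 2922 and 2014 in water-treated plants. PSAD-2 had 3001, 3017, 5461, 2007 and 2043 against 1305, 1185, 978.9, 1354 and 1283. Both were higher with ethanol by nearly the same log2 value, 1.420 ± 0.337 and 1.399 ± 0.245. PSAE-1 (AT4G28750) had 4829, 5036, 9405, 3642 and 3237 in ethanol-treated plants, against 2594, 2836, 2144, 3137 and 2531 in water-treated plants. PSAE-2 (AT2G20260), its lower-count relative, had 1215, 1144, 2333, 846.2 and 870.1 against 506.8, 606.5, 460.9, 643.9 and 541.4. Neither PSAE gene overlapped between groups, and both were called, with log2 values of 1.03 ± 0.25 and 1.27 ± 0.25. The annotated PSAD-2 gene overlaps AT1G03140 on the same strand, and reads in the overlap count for both.

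PSAK (AT1G30380), a membrane subunit at the edge of PSI that contacts the antenna, was the only PSI gene not called. It had 3033, 2828, 6290, 2199 and 2256 normalized counts in ethanol-treated plants, against 1630, 1909, 1431, 2167 and 1762 in water-treated plants, with no overlap and a log2 value of 0.95 ± 0.27, just under the fold threshold. PSAL (AT4G12800), which borders the PSAH subunit, had 7504, 5609, 11500, 4472 and 4646 against 3369, 2842, 2693, 3338 and 3060. PSAN (AT5G64040), a lumenal subunit on the plastocyanin side, had 2777, 2209, 5811, 1497 and 1423 against 1247, 1279, 1033, 1472 and 1137. Both were called higher, but PSAN overlapped in replicate 5. The remaining PSI genes PSAF (AT1G31330), which takes part in plastocyanin docking, PSAG (AT1G55670) and PSAO (AT1G08380) were higher with ethanol by log2 values of 1.09 to 1.12.

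Among PSII subunits, the genes of the oxygen-evolving complex did not move as 1 block. PSBO1 (AT5G66570), the main manganese-stabilising protein, had 6003, 4894, 9855, 3337 and 2946 normalized counts in ethanol-treated plants, against 2240, 2277, 1757, 2777 and 2266 in water-treated plants. PSBO2 (AT3G50820), its less abundant relative, had 1845, 1654, 3504, 1328 and 1215 against 953.4, 842.8, 569.1, 859.5 and 930.4. Both were called higher without overlap, with log2 values of 1.31 ± 0.30 and 1.25 ± 0.28. PSBQ-1 (AT4G21280) had 782.5, 695.9, 1535, 591.2 and 537.9 in ethanol-treated plants, against 594.7, 677.3, 511.2, 618.6 and 556.1 in water-treated plants. PSBQ-2 (AT4G05180) had 3271, 2080, 5136, 1543 and 1409 against 1289, 1190, 1053, 1291 and 1136. PSBQ-2 was called higher (log2 value 1.23 ± 0.33), whereas PSBQ-1 overlapped and was not called (0.54 ± 0.25, adjusted p = 0.122). PSBP-1 (AT1G06680), the third extrinsic protein, was higher with ethanol by 1.105 ± 0.332 on the log2 scale, and its annotated gene overlaps AT1G06670 on the same strand.

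PSBR, a small subunit that stabilises the oxygen-evolving complex, had the largest PSII difference. It had 35060, 28470, 49160, 18880 and 17950 normalized counts in ethanol-treated plants, against 11650, 12730, 8428, 13850 and 11830 in water-treated plants (log2 value 1.41 ± 0.25, adjusted p = 0.000951). PSBS (AT1G44575), the protein that triggers heat dissipation of excess excitation, had 3651, 2455, 4113, 1771 and 1855 against 1630, 1207, 1412, 1664 and 1520. These groups did not overlap either, but the log2 value of 0.95 ± 0.23 stayed under the fold threshold. PSBX (AT2G06520) and PSBY (AT1G67740), small membrane subunits, were called higher by 1.25 and 1.26, and PSBW (AT2G30570), which links PSII to its antenna, was not called (0.86 ± 0.28).

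The antenna was the least uniform class. Of the PSI antenna, LHCA1 (AT3G54890), LHCA2 (AT3G61470) and LHCA3 were called higher by log2 values of 1.149, 1.197 and 1.334, and LHCA4 (AT3G47470) was not (0.77 ± 0.22). Of the LHCB1 genes, which encode the main trimeric antenna protein of PSII, LHCB1.5 had 17810, 13990, 31550, 8510 and 8995 normalized counts in ethanol-treated plants, against 5548, 5775, 4419, 8695 and 5700 in water-treated plants. Its neighbour LHCB1.4 had 777.8, 1325, 1767, 1026 and 786.2 against 1064, 1142, 898, 1147 and 975.6. LHCB1.5 was called higher (1.48 ± 0.35) despite an overlap of replicate 4, and LHCB1.4 was not (0.17 ± 0.19, adjusted p = 0.541) and turned to -0.05 without ethanol-treated replicate 3. The genes on chromosome 1 were not called either, with log2 values of 0.48, 0.29 and 0.52 for LHCB1.1, LHCB1.2 and LHCB1.3, and 0.48 ± 0.21 when their counts were summed.

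LHCB2 proteins form trimers with LHCB1 and carry the phosphorylation used in state transitions. LHCB2.1 had 4943, 4769, 10610, 2900 and 2872 normalized counts in ethanol-treated plants, against 2264, 2280, 1839, 2707 and 2215 in water-treated plants, and was called higher (1.26 ± 0.33). LHCB2.2 had 1210, 1283, 3128, 1017 and 857 against 867.9, 832.7, 815.4, 1071 and 839.9 and was not called (0.81 ± 0.32), and neither was LHCB2.3 (AT3G27690, 0.47 ± 0.34). LHCB3 (AT5G54270), another trimer subunit, had 3007, 2884, 5276, 2356 and 2254 against 2193, 2278, 1777, 2352 and 1941. It passed the FDR at a log2 value of 0.63 ± 0.20, with replicate 5 of the ethanol-treated plants inside the water-treated range.

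The LHCB4 family encodes a monomeric antenna protein between the PSII core and the trimers. LHCB4.1 (AT5G01530) had 4592, 4180, 6954, 3152 and 2459 normalized counts in ethanol-treated plants, against 2333, 2977, 2339, 3056 and 2571 in water-treated plants. LHCB4.2 (AT3G08940) had 1569, 1381, 3182, 862.4 and 931.7 against 775.2, 799.9, 605.8, 1254 and 750.6. Both overlapped between groups and were not called (0.74 ± 0.22 and 0.98 ± 0.36). LHCB4.3, a member of the family with far fewer counts, had 373.1, 244.2, 341.3, 145.9 and 110.7 against 54.17, 89.72, 69.86, 122.6 and 84.1. It had the largest antenna difference (1.59 ± 0.35, adjusted p = 0.00464), although its replicate 5 overlapped. The other monomeric antenna genes, LHCB5 (AT4G10340) and LHCB6 (AT1G15820), passed the FDR but not the fold threshold (0.91 ± 0.32 and 0.63 ± 0.27).

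The same contrast before and earlier in drought served as a reference. At 10 DAD, 0 of 40 members were called in either direction, beside 0.0247% of all genes called higher and 0.0433% called lower. DESeq2 called 0 as well, and 6 of 40 members had an unadjusted p under 0.05, beside 8.88% of all genes. The fold changes were nevertheless negative for 39 of 40 genes, with a median log2 value of -0.26 and PSBS as the exception (0.11). LHCB1.4 had the lowest value (-1.098 ± 0.662), with 6980, 14130, 12260, 5055 and 1734 normalized counts in ethanol-treated plants, against 25920, 24820, 22480, 4687 and 8662 in water-treated plants. At 0 DAD, edgeR and DESeq2 called 0 of 40 members, no member had an unadjusted p under 0.05, and the median log2 value was -0.005, beside 0.0696% of all genes called higher and 0.0290% called lower.

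The change of the ethanol effect over time was tested as an interaction. The difference between ethanol-treated and water-treated plants was larger at 13 DAD than at 10 DAD for 31 of 40 members (11 antenna, 12 PSI, 8 PSII), beside 8.61% of all genes, with a median log2 value of 1.38. It was larger at 13 DAD than at 0 DAD for 24 members (6 antenna, 10 PSI, 8 PSII), beside 8.55% of all genes, with a median of 1.07. None was called in the other direction by edgeR or DESeq2, and all 40 values were positive in both tests. Without replicate 3 of the ethanol-treated plants at 13 DAD, 19 and 5 members were called, beside 7.19% and 7.38% of all genes, so that the count against 0 DAD then came near the share of all genes.

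Over the drought period the whole set was lower, and most of the difference lay between 10 and 13 DAD. Drought and age cannot be told apart here. In water-treated plants all 40 members were lower at 13 DAD than at 0 DAD, beside 30.0% of all genes called lower, with median log2 values of -4.49 for antenna, -4.07 for PSI and -4.04 for PSII genes. All 40 were also lower at 13 than at 10 DAD, beside 25.6% of all genes, with a median of -3.98. In ethanol-treated plants 39 of 40 were lower at 13 than at 0 DAD (background 24.8%), with medians of -3.60 for antenna, -2.84 for PSI and -2.79 for PSII genes. All 40 were lower at 13 than at 10 DAD (background 17.9%). The exception was LHCB4.3, at -0.14 ± 0.28 between 0 and 13 DAD, with 243 ± 116 normalized counts at 13 DAD and 280 ± 32 at 0 DAD (SD, n = 5 each).

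**Figure D3:**
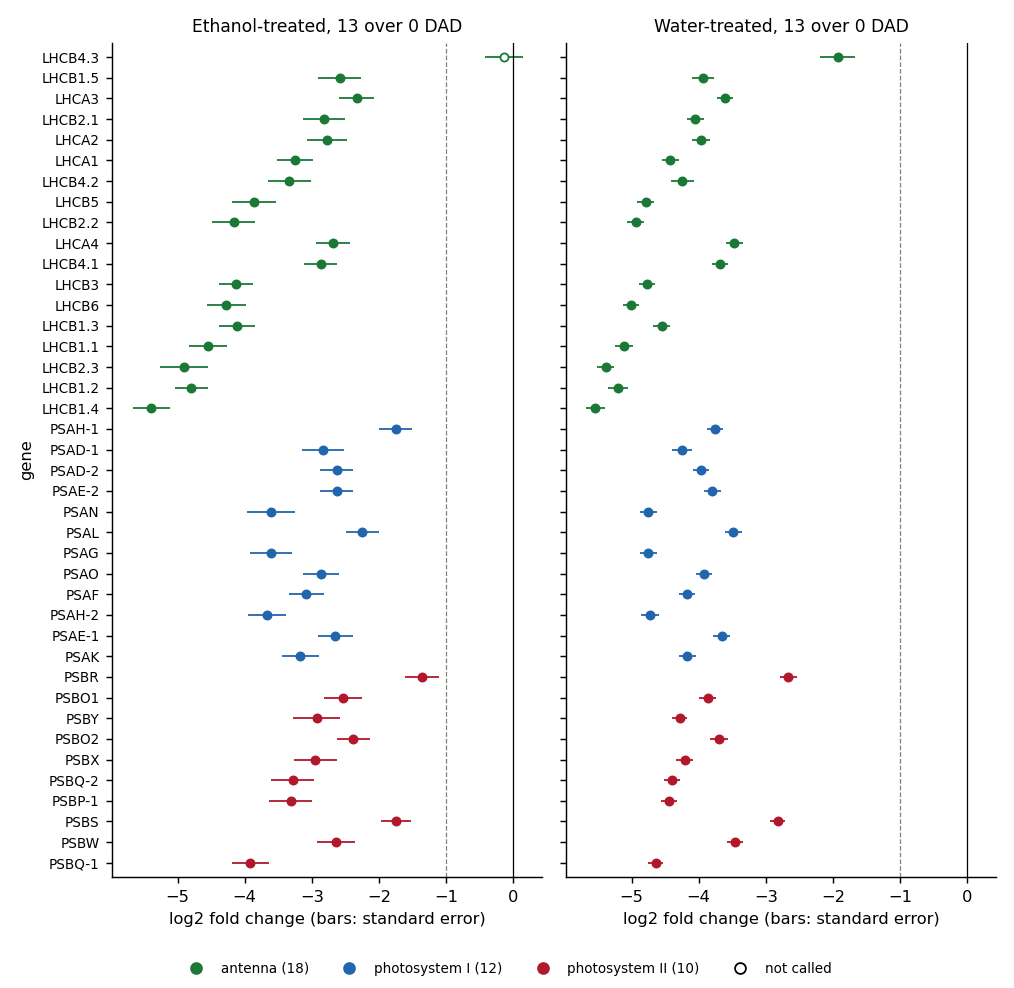
Log2 fold change of each gene at 13 DAD over 0 DAD, with its standard error, in ethanol-treated plants (left) and water-treated plants (right), 5 libraries per group. The dashed line marks a 2-fold change, filled points were called lower and the open point is LHCB4.3 in ethanol-treated plants. Values run between -5.40 and -0.14 on the left and between -5.54 and -1.93 on the right.

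The depth of the fall differed strongly between genes in water-treated plants. LHCB1.4 fell most, to 1045 ± 108 normalized counts at 13 DAD, against 49150 ± 8110 at 0 DAD (log2 value -5.54 ± 0.14). LHCB2.3, LHCB1.2, LHCB1.1 and LHCB6 followed at -5.39, -5.21, -5.11 and -5.00, so that the deepest falls from 0 DAD were all in the PSII antenna. LHCB1.4 and LHCB2.3 were themselves higher at 0 DAD than before pretreatment, by log2 values of 1.57 and 1.37 with water. Their ranks therefore hold for 0 DAD as the baseline. LHCB4.3 fell least (-1.93 ± 0.26), to 84.1 ± 25.6 against 324 ± 121. In PSI the extremes were PSAN (-4.75 ± 0.13), with 1234 ± 165 at 13 DAD against 33660 ± 3570 at 0 DAD, and PSAL (-3.49 ± 0.13), with 3061 ± 298 against 34710 ± 5670. In PSII they were PSBQ-1 (-4.64 ± 0.12) and PSBR (-2.67 ± 0.13), and PSBS (-2.82 ± 0.12) was next to PSBR. PSBR stood at 11700 ± 2030 at 13 DAD against 75000 ± 8160 at 0 DAD.

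Between 0 and 10 DAD few members passed the fold threshold. At 10 DAD against 0 DAD in water-treated plants, LHCB1.4 was called lower (-1.47 ± 0.45, background 10.6%) and LHCB4.3 higher (1.097 ± 0.220, background 6.26%). LHCB1.4 was itself higher at 0 DAD than before pretreatment, by a log2 value of 1.57 with water. Its call therefore holds for 0 DAD as the baseline. With no fold threshold 17 of 40 members passed in the lower direction, beside 25.2% of all genes. Replicates 4 and 5 of the water-treated plants held the lowest LHCB1.4 values, and the call for LHCB4.3 was lost when replicate 1 at 0 DAD was left out. In ethanol-treated plants LHCB1.1, LHCB1.2, LHCB1.3, LHCB1.4 and LHCB2.3 were called lower at 10 DAD than at 0 DAD (background 11.8%), with log2 values of -1.43, -1.44, -1.02, -2.62 and -1.38, and LHCB4.3 was called higher (1.19 ± 0.11, background 5.74%). The call for LHCB1.3 was lost without replicate 1 at 0 DAD or without replicate 4 or 5 at 10 DAD. LHCB1.4 and LHCB2.3 were also higher at 0 DAD with ethanol than before pretreatment, by log2 values of 1.60 and 1.36. With no fold threshold 37 of 40 passed in the lower direction, beside 26.9% of all genes, with a median log2 value of -0.50 over the members. LHCB4.3 was the only member called higher during drought in either treatment, with 531 to 740 normalized counts at 10 DAD in ethanol-treated and 568 to 813 in water-treated plants.

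During the pretreatment days themselves, the same antenna genes were called higher with ethanol and with water. LHCB1.4 had 49940 ± 9580 normalized counts at 0 DAD after ethanol and 49150 ± 8110 after water, against 16640 ± 1290 before pretreatment (log2 values 1.60 ± 0.10 and 1.57 ± 0.09). LHCB2.3 had 19350 ± 2780 and 19560 ± 1990, against 7580 ± 905 (1.36 ± 0.09 and 1.37 ± 0.08). These were the 2 members called higher in each comparison, beside 1.77% of all genes with ethanol and 1.02% with water. With no fold threshold 29 members passed as higher and 1 as lower with ethanol, beside 12.4% and 15.4% of all genes, and 33 and 1 with water, beside 8.38% and 11.3%. In both comparisons 39 of 40 fold changes were positive and PSBS was negative (-0.38 ± 0.08 and -0.25 ± 0.07). Both comparisons use the same libraries from before pretreatment.

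The balance between classes also shifted over drought and differed between treatments at 13 DAD. The log2 ratio of summed antenna counts to summed PSI counts was 1.21 to 1.27 at 0 DAD in ethanol-treated and 1.21 to 1.27 in water-treated plants. At 10 DAD it was 0.89 to 1.07 in ethanol-treated and 1.05 to 1.18 in water-treated plants. Before pretreatment it was 1.11 to 1.18, below the ranges at 0 DAD and overlapping that at 10 DAD with water. At 13 DAD it was 0.71, 0.74, 0.71, 0.73 and 0.73 in the ethanol-treated libraries, against 0.95, 1.02, 0.94, 1.02 and 0.95 in the water-treated libraries. At 13 DAD no ethanol-treated library reached the range of the water-treated ones, and the 5 lay close to each other, although the members' share of counts ran between 2.09% and 6.03% in the same libraries. The ratio of antenna to PSII behaved alike at 13 DAD (0.19 to 0.49 against 0.60 to 0.73), whereas the ratio of PSI to PSII overlapped (-0.52 to -0.24 against -0.42 to -0.24). These ratios were described and not tested.

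**Figure D4:**
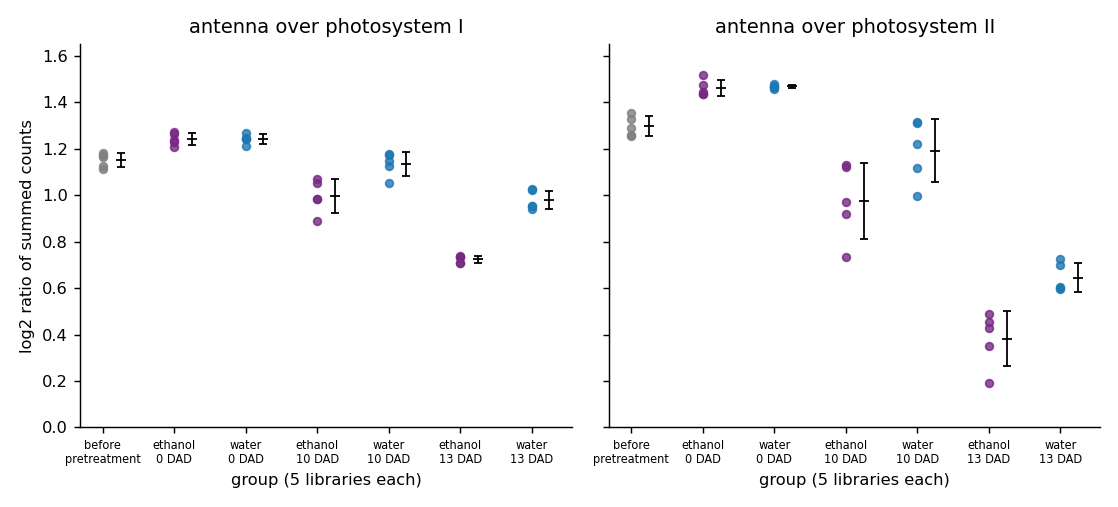
Log2 ratio of summed raw counts of antenna over PSI genes (left) and antenna over PSII genes (right) in each library of the 7 groups, with the mean and SD of 5 libraries beside the points. At 13 DAD the ethanol-treated libraries lie at 0.71 to 0.74 on the left and 0.19 to 0.49 on the right, below the water-treated ones at 0.94 to 1.02 and 0.60 to 0.73.

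Related genes were then compared within each library, where the level of the whole set and the gene lengths cancel between groups. Of 27 comparisons of 9 pairs, 22 passed at an adjusted p under 0.1 in a two-sided exact permutation test over libraries, for which 0.00794 is the smallest possible p with 5 libraries against 5. PSAH-1/PSAH-2 passed in each of its comparisons. Its log2 ratio was 1.33, 1.22, 1.27, 1.24 and 1.48 in the ethanol-treated libraries at 13 DAD, against 0.37, 0.30, 0.45, 0.41 and 0.26 in the water-treated libraries (difference 0.95, adjusted p = 0.0126, exact test). PSAH-2 was the gene with more counts before drought, at ratios of -0.70 to -0.55 in water-treated plants, and PSAH-1 had more counts at 13 DAD. The replicates of each group lay close together, with SDs of 0.10 and 0.08 at 13 DAD.

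Within LHCB1, the neighbours on chromosome 2 moved apart. The log2 ratio LHCB1.4/LHCB1.5 was -4.52, -3.40, -4.16, -3.05 and -3.52 in ethanol-treated plants at 13 DAD, against -2.38, -2.34, -2.30, -2.92 and -2.55 in water-treated plants, with no overlap (difference -1.23, adjusted p = 0.0126, exact test). In water-treated plants it was -4.07 to -1.89 at 10 DAD, against -1.07 to -0.80 at 0 DAD. Before pretreatment it was -2.28 to -1.70, below the range at 0 DAD. The range at 13 DAD with water lay inside that at 10 DAD. LHCB2.1/LHCB2.2 was higher at both drought times than at 0 DAD with water (differences of 0.344 and 0.884), with 1.51 to 2.03 in ethanol-treated and 1.17 to 1.45 in water-treated plants at 13 DAD, against 0.42 to 0.49 in water-treated plants at 0 DAD.

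In the LHCB4 family the relatives took different courses. LHCB4.3/LHCB4.1 was -4.46 to -3.62 in ethanol-treated and -5.40 to -4.62 in water-treated plants at 13 DAD, against -7.34 to -6.24 in water-treated plants at 0 DAD (differences of 0.82 and 1.80). LHCB4.2/LHCB4.1 with water was higher by 0.51 at 10 DAD and lower by 0.59 at 13 DAD, each against 0 DAD, without overlap in either case, and did not pass between treatments at 13 DAD (difference 0.19, adjusted p = 0.33, exact test). Before pretreatment this ratio was -1.68 to -1.53, inside its range of -1.95 to -1.28 with water at 13 DAD. PSBQ-1/PSBQ-2 with water was lower by 1.05 at 10 DAD than at 0 DAD. At 13 DAD it was -2.06 to -1.38 in ethanol-treated plants, against -1.11 to -0.81 in water-treated plants, and at 10 DAD it was -2.09 to -1.56 in water-treated plants.

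The remaining pairs showed smaller differences. PSAE-1/PSAE-2 differed by -0.23 between treatments at 13 DAD (1.89 to 2.14 against 2.22 to 2.35, adjusted p = 0.0126, exact test). PSAD-1/PSAD-2 and PSBO1/PSBO2 did not pass between treatments at 13 DAD (differences -0.03 and 0.02, adjusted p = 0.881 for each, exact test), with ranges of 0.55 to 0.98 against 0.65 to 1.11 and of 1.28 to 1.70 against 1.23 to 1.69. Over time with water, PSAD-1/PSAD-2 passed at 10 and 13 DAD against 0 DAD (differences -0.061 and -0.298, adjusted p = 0.0429 and 0.051, exact test). PSAE-1/PSAE-2 passed at 13 DAD against 0 DAD (0.131, adjusted p = 0.0429, exact test) and PSBO1/PSBO2 at 10 DAD against 0 DAD (0.191, adjusted p = 0.0682, exact test). The PSAE call was lost without replicate 1 or 4 at 13 DAD (adjusted p = 0.107 and 0.102, exact test), and the PSBO call without replicate 3, 4 or 5 at 0 DAD (adjusted p up to 0.166, exact test). The count of 22 was 21 to 22 when single libraries were left out, and every pair named here as passing between treatments at 13 DAD kept an adjusted p of at most 0.0252.

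**Figure D5:**
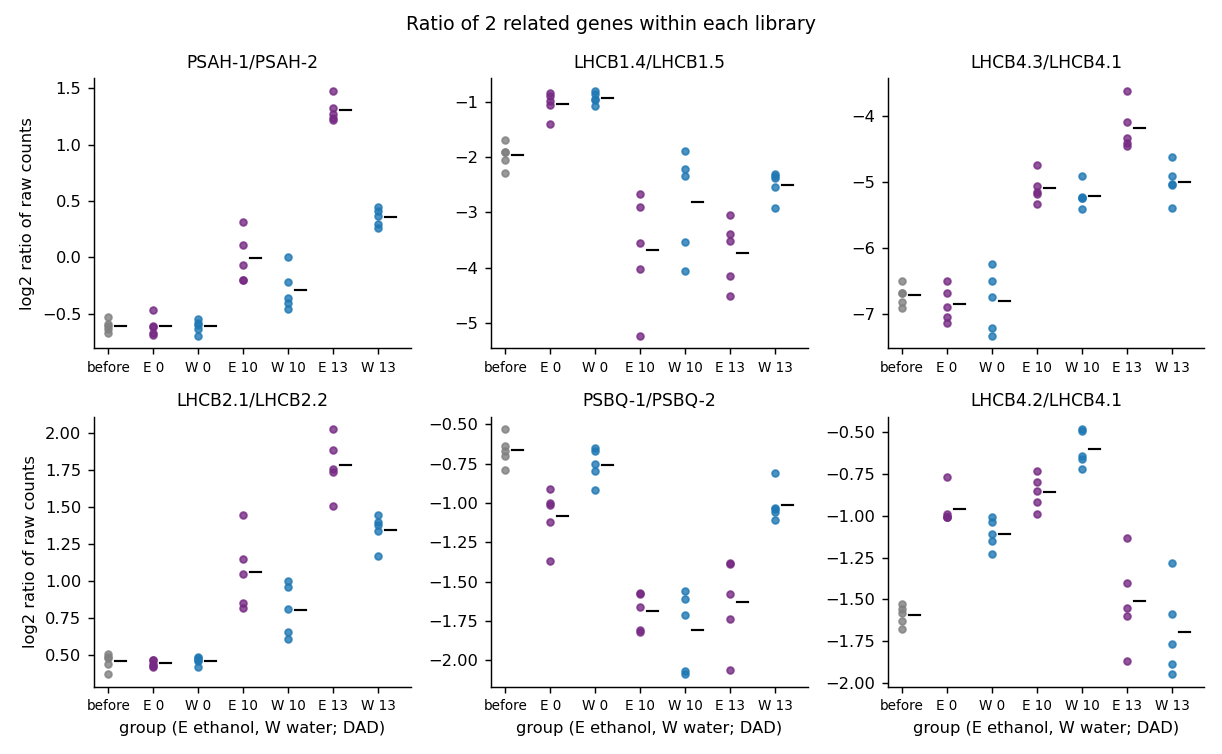
Log2 ratio of raw counts of 2 related genes in each library, for 6 pairs and 7 groups (before pretreatment, E ethanol-treated and W water-treated at 0, 10 and 13 DAD), with a bar at the mean of 5 libraries. At 13 DAD the ethanol-treated libraries lie outside the range of the water-treated ones in 5 of the 6 pairs, and LHCB4.2/LHCB4.1 overlaps.

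Other genes of the photosynthetic apparatus gave context. Of 14 electron transport and ATP synthase genes, 4 were called higher in ethanol-treated plants at 13 DAD and 0 lower (median log2 value 0.65). Over all genes 8.79% were called higher and 4.78% lower. The 4 were LFNR2 (AT1G20020) and PGRL1A (AT4G22890), which act around ferredoxin, and ATPC1 (AT4G04640) and ATPG (AT4G32260) of the ATP synthase, by 1.04 to 1.37. In water-treated plants 12 of the 14 were lower at 13 than at 0 DAD, beside 30.0% of all genes, and PGRL1B (AT4G11960) was higher (2.15 ± 0.10). Of 8 plastid-encoded photosystem genes, 0 were called between treatments at 13 DAD (edgeR; median 0.225), with psbE (ATCG00580) alone at an unadjusted p under 0.05. That gene was also the only 1 of the 8 called lower at 13 than at 0 DAD with water (-1.24 ± 0.33), where the list had a median log2 value of 0.036, beside -4.195 for the nuclear members. All plastid genes together took 2.25% to 3.2% of counts at 0 DAD with water and 0.631% to 0.933% at 13 DAD. Plastid transcripts largely lack the poly(A) tails that many library methods select for.

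Rare relatives of the antenna and small PSII proteins gave a mixed picture. ELIP1 (AT3G22840), an early light-induced protein with a photoprotective role, was lower in ethanol-treated plants at 13 DAD, at 5630 ± 1680 normalized counts against 19500 ± 3620 in water-treated plants (log2 value -1.74 ± 0.20). With water alone it was higher at 13 than at 0 DAD (6.91 ± 0.16). Of the 5 rare antenna relatives, 2 were called higher there and 2 lower, beside 22.6% and 30.0% of all genes. Between treatments at 13 DAD, LHCB7 (AT1G76570) was higher with ethanol (1.13 ± 0.12), and the other 3 rare antenna relatives were not called. Among 5 small PSII and assembly proteins 1 was called higher with ethanol, beside 8.79% of all genes. It was PPL2 (AT2G39470), which RefSeq annotates as the NDH subunit PnsL1. With water, all 5 were lower at 13 than at 0 DAD, beside 30.0% of all genes.

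The lists of GLK and HY5 regulators and of import factors gave no calls between treatments at 13 DAD, and the clock list gave 1. GLK1 (AT2G20570), GLK2 (AT5G44190) and HY5 (AT5G11260) had log2 values of 0.56, 0.06 and -0.22 at 13 DAD, and 0 of the 3 were called. Of 6 genes for antenna insertion and state transitions, 0 were called between treatments by edgeR, although CPSRP54 (AT5G03940, -0.41 ± 0.14) and TAP38 (AT4G27800, 0.52 ± 0.11) passed the FDR alone. At 13 against 0 DAD in water-treated plants GLK1 was lower (-2.12 ± 0.13), HY5 higher (1.92 ± 0.16), and STN7 (AT1G68830), the kinase of state transitions, higher (1.51 ± 0.10). STN7 was the only 1 of its list of 6 called higher there, and 3 were called lower, with a median log2 value of -0.92. Over all genes 22.6% were called higher and 30.0% lower. Of 10 clock genes, LHY (AT1G01060) was lower with ethanol at 13 DAD (-1.096 ± 0.146), beside 4.78% of all genes. With water 4 of the 10 were higher and 2 lower at 13 than at 0 DAD, beside 22.6% and 30.0% of all genes. CCA1 (AT2G46830) was higher there by 3.50 ± 0.11. The hour of harvest is not given in the sources used here, and its part in the falls over drought was not tested.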

How the data were processed

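RNA-seq libraries were made from shoot RNA by Lasy-Seq. Per the labels RNA came from an RNeasy kit, whereas the study's methods name another kit. The authors trimmed R1 reads with Trimmomatic, aligned them to TAIR10 with HISAT2 and counted primary alignments per annotated gene with featureCounts, using strand, where reads over overlapping genes add to every such gene. The deposited raw counts hold 27417 genes. The deposited normalized counts are a signal obtained by dividing the raw counts of each library by 1 factor, as checked on the files, and are printed as levels. From raw counts, each comparison was fitted on its own libraries with edgeR 4.0.16 (TMM, filterByExpr, robust quasi-likelihood), and Benjamini-Hochberg adjustment covered all genes tested. Calls needed both an adjusted p under 0.1 and a fold change of 2 or more. Standard errors of log2 fold changes were obtained by dividing its size by √F. On counts simulated for ethanol-treated against water-treated plants at 13 DAD the fit was tested before use. Pair ratios used raw counts plus 1. DESeq2 1.42.0, other scalings and filters, a replicate block and each library left out were tried. The main test treated the libraries as unpaired. Over all genes, same-numbered libraries of different groups did not deviate together. The p-values set differences between groups against the spread between libraries. How many plants made up a library is not given in the sources used here. Depth limits counts only by counting error. Members and lists were chosen with earlier results of these data known. Levels library by library are given for the members with the largest and smallest change of each class in 2 comparisons, for pairs that passed, and for PSBS, LHCB3 and LHCB4.3. Gene positions and upstream sequences are from RefSeq's TAIR10.1, not from the files.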

Additional observations from a re-analysis of the deposited data

Results flagged for a closer look

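In 14 of 203 sets of 5 libraries, 1 library stood apart from the others by Dixon's test, and chance alone gives about 1 in 20. Replicate 3 of the ethanol-treated plants at 13 DAD was the library that stood apart for 7 genes: PSAK with 6290 normalized counts (next 3033), PSBQ-1 with 1535 (next 782.5), PSAE-2 with 2333 (next 1215), PSBO2 with 3504 (next 1845), LHCB2.1 with 10610 (next 4943), LHCB2.2 with 3128 (next 1283) and LHCB3 with 5276 (next 3007). In water-treated plants at 13 DAD, replicate 4 stood apart for PSAD-1 with 2922 (next 2070) and for LHCB2.2 with 1071 (next 867.9), and replicate 3 for PSBO2 with 569.1 (next 842.8). In ethanol-treated plants at 0 DAD, replicate 1 stood apart for LHCB2.1 with 44410 (next 38140). Before pretreatment, LHCB1.4 had 14380 in replicate 3 (next 16840), PSAH-1 had 14400 in replicate 4 (next 13580) and LHCB4.2 had 8689 in replicate 2 (next 9206).

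The ethanol effect also differed between times by the interaction test. The difference between treatments was larger at 13 than at 10 DAD for 31 members, beside 8.61% of all genes. Against 0 DAD it was larger for 24 members, beside 8.55% of all genes. Without replicate 3 of the ethanol-treated plants at 13 DAD these counts were 19 and 5, beside 7.19% and 7.38% of all genes.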

How the results depend on the processing

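Under DESeq2, other size factors, other count filters, 1 fit of all groups, a stricter FDR and non-robust dispersion, member counts stayed within 1.5 times their main value, apart from those given here. For water-treated plants at 10 against 0 DAD, 2 members were called lower with DESeq2, RLE size factors, all groups in 1 fit or the replicate block, where the main test called 1. With no fold threshold that comparison gave 2 higher and 17 lower, the latter beside 25.2% of all genes. Ethanol-treated plants at 10 against 0 DAD then gave 37 lower, beside 26.9% of all genes. For 0 DAD against before pretreatment, 33 members passed the FDR alone as higher and 1 as lower with water, beside 8.38% and 11.3% of all genes. With ethanol these were 29 and 1, beside 12.4% and 15.4%. Summing LHCB1.1 to LHCB1.3 gave 3 lower in ethanol-treated plants at 10 against 0 DAD. Library totals in place of TMM moved the median of all genes at 13 DAD between treatments to 0.30 and that of the members to 1.37. Then 32 members were called higher, beside 2243 of all 15394 genes tested, where the main test called 1353. With the replicate block 17 members were called higher between treatments at 13 DAD, beside 1464 of 16720 genes. In the interactions with 10 and 0 DAD, 29 and 21 were called, beside 1424 of 17596 and 1467 of 18453 genes. Over all genes, same-numbered libraries did not deviate together, with pair correlations of -0.286 to 0.171. For the members alone, replicates 4 and 5 held the lowest shares of counts at 10 DAD in both treatments and at 13 DAD with ethanol. At 13 DAD with water they did not. Whether the members pair by replicate number was not tested. Leaving out single libraries gave 7 to 29 members higher between treatments at 13 DAD, 19 to 36 and 5 to 28 in the interactions with 10 and 0 DAD, 0 to 1 higher and 1 to 3 lower in water-treated plants at 10 against 0 DAD, and 4 to 8 lower in ethanol-treated plants. LHCB1.4 ranged over -0.046 to 0.275 between treatments at 13 DAD, PSAD-1/PSAD-2 over -0.085 to 0.053, PSBO1/PSBO2 over -0.037 to 0.08, and PSAE-1/PSAE-2 in water-treated plants at 10 against 0 DAD over -0.025 to 0.054. Shares of counts kept their direction with nuclear counts as denominator or with normalized counts. The cause of these changes was not tested.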
